A study of Saccharomyces cerevisiae with 6 samples.

Results

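Hexose transporter and glucose sensor genes of budding yeast were followed in cells exposed to zinc pyrithione. The set held 10 genes chosen by name: the transporter genes HXT1, HXT2, HXT3, HXT4, HXT5, HXT6, HXT7 and HXT10 and the sensor genes SNF3 and RGT2. Of these, 9 had a spot on the array that the platform annotation gives to them, each with 1 spot, among 5379 genes with a named spot in all. No spot was named for SNF3, so that SNF3 is not analysed here. A total of 8 had a value on every array and were among the 4312 genes tested, and HXT10 had values on 2 arrays.

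The treated cells were Saccharomyces cerevisiae of strain S288C, a laboratory strain, grown in rich YPD medium with 2% glucose at 25 °C to an optical density of 1 to which zinc pyrithione, an antifungal and antibacterial metal complex, was added at 12.6 µM for 2 h. The untreated cells were of the same strain, medium and density and grew for 2 h more with nothing added. Messenger RNA of treated cells carried Cy5 and that of untreated cells Cy3, and both were hybridised to 1 cDNA array, with 3 arrays from independent biological samples. The arrays were read with 2 laser powers, and the high-power and low-power scans of an array were averaged, so that n = 3. The zinc pyrithione was dissolved in dimethyl sulfoxide and the untreated cells were given no solvent, so compound and solvent cannot be told apart, and neither can dye and treatment, because no array carried exchanged dyes.

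Yeast takes up glucose by facilitated diffusion through the Hxt proteins, which differ in their affinity for glucose. Hxt1 and Hxt3 are low-affinity carriers used when glucose is abundant, whereas Hxt2, Hxt4, Hxt6 and Hxt7 are carriers of higher affinity whose genes are held down by high glucose and expressed when glucose is scarce. Snf3 and Rgt2 resemble transporters but act as receptors: Snf3 senses low and Rgt2 high glucose, and both signal through the proteins Mth1 and Std1 to the repressor Rgt1, which sits on HXT promoters. The medium used here was made with 2% glucose, and the low-affinity carriers are known to dominate when glucose is abundant. Glucose left in either culture at harvest is not analysed here.

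All values below are log2 ratios of treated over untreated cells, where 0 is no difference and 1 is a 2-fold higher level in treated cells. This direction is the likely one, taken from the order of the channels, and it is not stated with the deposited values; with the opposite direction every sign would be exchanged. A ratio compares the share of a transcript in the messenger RNA of the 2 cultures, so that fewer transcripts per cell and fewer cells with the transcript cannot be told apart. Genes were tested with limma against a ratio of 0, with Benjamini-Hochberg adjustment over all 4312 genes and a threshold of 0.05. Over all genes tested the median was 0.03. High-power scans held values for 4693 to 5737 spots and low-power scans for 1789 to 3372 of the 6912 spots.

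The called transporter genes differed in direction, with 1 low-affinity gene higher and 3 high-affinity genes lower. The other low-affinity gene, HXT3, had a mean of -0.19, near the -0.27 of the high-affinity gene HXT4. The low-affinity gene HXT1 rose in treated cells, the high-affinity genes HXT6, HXT7 and HXT2 fell, and HXT3, HXT4, HXT5 and RGT2 were not past the threshold. Thus 4 of the 8 genes tested were called, 1 higher and 3 lower, against 17.7% of all genes tested (8.12% higher and 9.6% lower). The median of the 8 was -0.23. HXT6 and HXT7 are nearly identical in sequence, so their calls may not be separate, and these counts may hold the same transcripts more than once.

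HXT1 (YHR094C) encodes the low-affinity carrier that is induced most by high glucose. Its log2 ratio was 0.95, 0.65 and 0.88 on arrays 1, 2 and 3. All 6 scans were positive, between 0.50 and 1.03. The mean was 0.83 ± 0.16 (SD, n = 3), a 1.77-fold higher level in treated cells (limma adjusted p = 0.013), and it was the 213th highest of the 4312 genes tested. The call ended without replicate 1 (0.76, limma adjusted p = 0.092) and in the low-power scans alone (0.80, adjusted p = 0.053). Those scans held 1429 genes on all arrays.

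HXT3 (YDR345C), the other low-affinity carrier gene, is induced by glucose over a wide range of concentrations. Its log2 ratio was -0.07, -0.65 and 0.15 on arrays 1, 2 and 3, so that the arrays lay on both sides of 0. The mean was -0.19 ± 0.41 (SD, n = 3; limma adjusted p = 0.53), with a 95% confidence interval of -0.65 to 0.27. On each array HXT1 lay above HXT3, by 1.02, 1.30 and 0.73. Without replicate 2, whose low-power scan gave -0.98, the mean of HXT3 was 0.04 (limma adjusted p = 0.92).

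**Figure D1:**
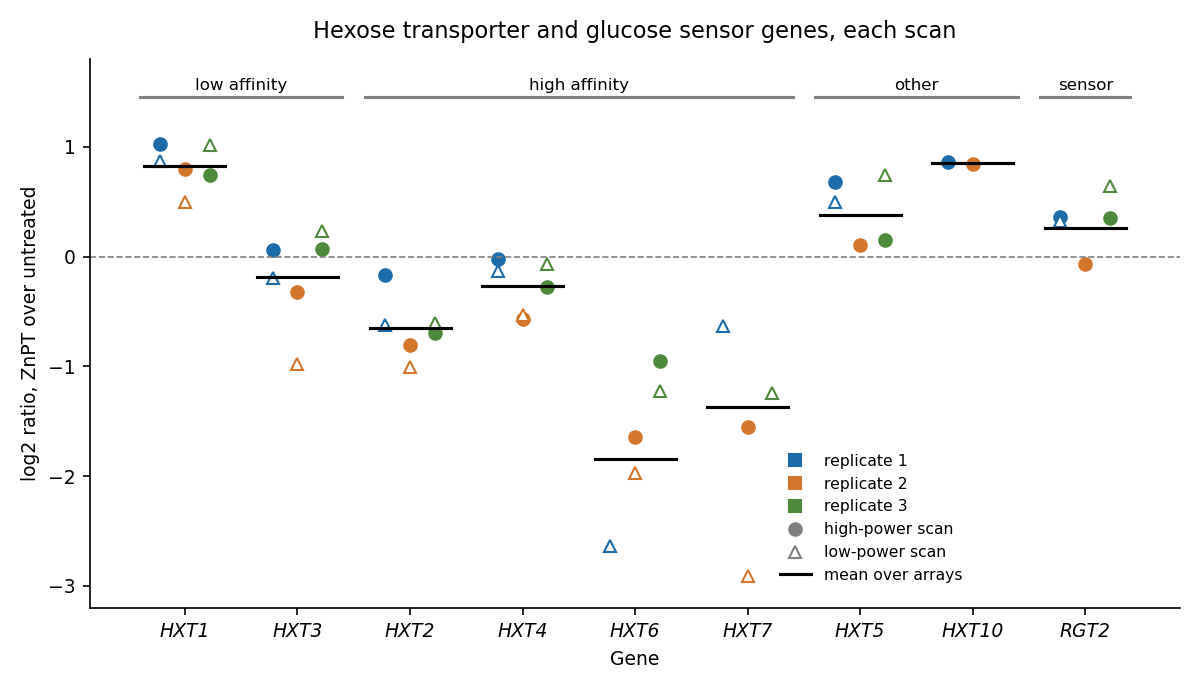
Log2 ratio of treated over untreated cells (vertical axis) for the 9 genes with a spot, 1 point for each scan; colours are replicates, filled circles high-power and open triangles low-power scans, and black lines the mean over arrays. All scans of HXT1 lie above 0, and all scans of HXT2, HXT4, HXT6 and HXT7 lie below it.

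HXT6 (YDR343C) and HXT7 (YDR342C) encode high-affinity carriers and are nearly identical in sequence, so that a cDNA spot for either can bind both transcripts. They were the lowest of the transporter genes. HXT6 had log2 ratios of -2.64, -1.81 and -1.09 on arrays 1, 2 and 3, and every scan was negative. The mean was -1.84 ± 0.78 (SD, n = 3), a 3.59-fold lower level in treated cells (limma adjusted p = 0.0055), the 42nd lowest of the 4312 genes. HXT7 had -0.63, -2.23 and -1.24, again with every scan negative. Its mean was -1.37 ± 0.81 (SD, n = 3), a 2.58-fold lower level (limma adjusted p = 0.018). The call of HXT7 ended without replicate 2 (-0.93, limma adjusted p = 0.066) and in the low-power scans alone (-1.59, adjusted p = 0.06).

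The size of the drop at these genes is less certain than its sign. The SDs of HXT6 and HXT7 were above those of 96.7% and 97.4% of all genes tested, where the median SD was 0.27. HXT6 minus HXT7 was -2.01 on array 1, 0.43 on array 2 and 0.15 on array 3, so that the order of the pair changed between arrays. Of 9 other genes with 2 spots that held different values on all arrays, the largest difference between spots of 1 gene on 1 array was 0.78, and the median of each gene's largest difference was 0.55. On array 1 both genes had a value from the low-power scan alone, which held for 54 of 5273 genes on that array, and HXT7 had no high-power value on array 3 either, as held for 37 of 4509 genes there. The labels say that low power was used to recover spots too bright for the scanner's range; whether that applied to these spots was not tested. On array 2 the scans of HXT7 gave -1.56 at high and -2.91 at low power, a difference of 1.35, and 95% of the genes with both scans on that array differed by at most 0.74. With HXT6 and HXT7 averaged into 1 value, the ratio was -1.58 (limma adjusted p = 0.0029), an alternative chosen after seeing the data.

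HXT2 (YMR011W) encodes a high-affinity carrier that is induced by low glucose and repressed by high glucose. Its log2 ratio was -0.40, -0.90 and -0.65 on arrays 1, 2 and 3, and all 6 scans were negative. The mean was -0.65 ± 0.25 (SD, n = 3), a 1.57-fold lower level in treated cells (limma adjusted p = 0.037). Leaving out any 1 of the 3 replicates ended this call, with limma adjusted p of 0.089, 0.18 and 0.079 without replicates 1, 2 and 3, and so did the low-power scans alone (adjusted p = 0.06).

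HXT4 (YHR092C), regulated by glucose much like HXT2, had -0.08, -0.55 and -0.17. All 6 of its scans were negative as well, but the mean of -0.27 ± 0.25 (SD, n = 3) was not past the threshold (limma adjusted p = 0.30), with a 95% confidence interval of -0.66 to 0.13. HXT4 and HXT3 overlapped over the arrays.

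Set side by side, the mean of the low-affinity genes HXT1 and HXT3 was 0.44, -0.0015 and 0.51 on arrays 1, 2 and 3, and that of the high-affinity genes HXT2, HXT4, HXT6 and HXT7 was -0.94, -1.37 and -0.79. Low minus high affinity was 1.38, 1.37 and 1.30, a mean of 1.35 ± 0.04 (SD, n = 3). No test is given, because the genes were chosen with results of these data known. An exact sign-flip test on 3 arrays could not go below p = 0.25 in any case. The difference varied less between arrays than either class mean, whose SDs were 0.28 for low and 0.31 for high affinity. The high-affinity mean hides opposite scatter of HXT6 and HXT7, whose SDs were 0.78 and 0.81 singly and 0.43 for their mean. Array 2 was the lowest of the 3 arrays for 7 of the 8 genes tested, the exception being HXT6, against 32% of all genes tested. The median over all genes tested was 0.035 on that array, and the part of array 2 in these ratios was not tested further.

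Much of the difference came from HXT6 and HXT7. In the high-power scans alone, which left HXT2 and HXT4 as the high-affinity genes with values on all arrays, low minus high affinity was 0.82, and in genes with both scans on all arrays it was 0.78. With HXT6 and HXT7 averaged into 1 value it was 1.15. The sign was positive under each of these. Within the low-affinity class, HXT1 minus HXT3 was 1.02 on average over the arrays, less than the 1.35 between classes over the same values. It was more than the 0.78 with both scans required, where HXT1 and HXT3 had the same means. In the high-power scans alone HXT1 stood at 0.86 and HXT3 at -0.07, against 0.82 between classes.

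**Figure D2:**
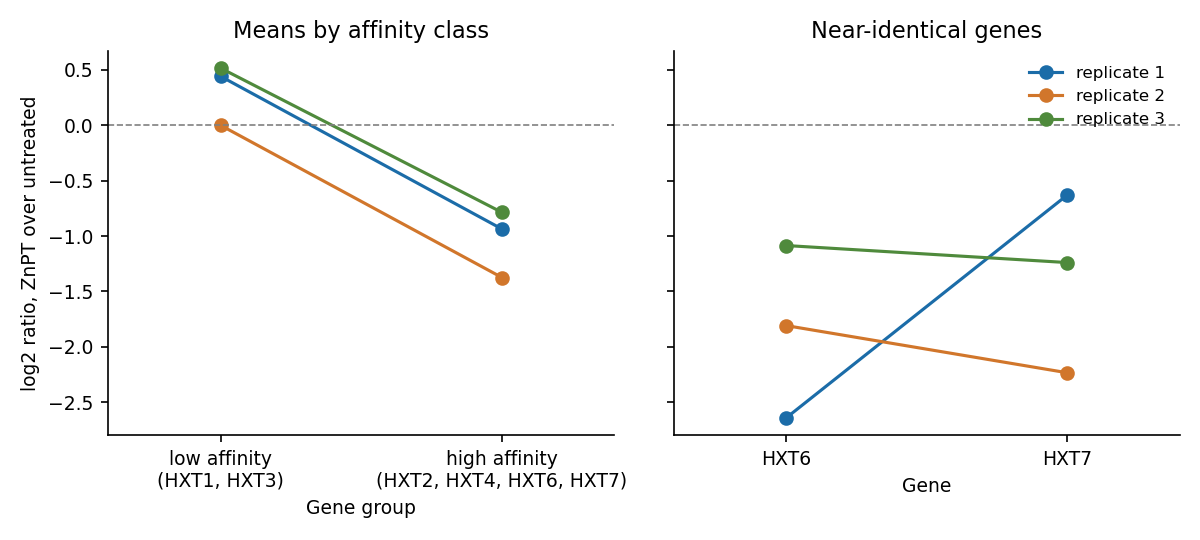
Left, mean log2 ratio of treated over untreated cells for the low-affinity genes and for the high-affinity genes; right, log2 ratios of HXT6 and HXT7; each line is 1 array. The lines on the left run nearly parallel, with drops of 1.30 to 1.38, and those on the right cross, with HXT6 at -2.64 and HXT7 at -0.63 on array 1.

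HXT5 (YHR096C) encodes a carrier of intermediate affinity that is known from slowly growing, starved or stressed cells rather than from cells in high glucose. Its log2 ratio was 0.59, 0.11 and 0.44 on arrays 1, 2 and 3, positive in all 5 scans with a value. The mean was 0.38 ± 0.25 (SD, n = 3; limma adjusted p = 0.15), and the 95% confidence interval of -0.0094 to 0.77 included 0. HXT10 (YFL011W), a lesser used transporter gene of the family, had 0.86 on array 1 and 0.85 on array 2, both from high-power scans, and no value on array 3. A fit of 5048 genes with values on at least 2 arrays gave it a mean of 0.86 (limma adjusted p = 0.039, n = 2).

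RGT2 (YDL138W), the high-glucose sensor gene, had a log2 ratio of 0.35, -0.07 and 0.50 on arrays 1, 2 and 3. The arrays lay on both sides of 0, and the mean of 0.26 ± 0.29 (SD, n = 3) was not past the threshold (limma adjusted p = 0.33; 95% confidence interval -0.15 to 0.67).

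In order of their means the genes tested ran from HXT1 through HXT5, RGT2, HXT3, HXT4, HXT2 and HXT7 to HXT6. HXT1 lay above the other 7 genes tested on all 3 arrays. The ranges of HXT5 and RGT2 over the arrays overlapped, as did those of RGT2 and HXT3, of HXT3 and HXT4, of HXT4 and HXT2, of HXT2 and HXT7, and of HXT7 and HXT6.

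**Figure D3:**
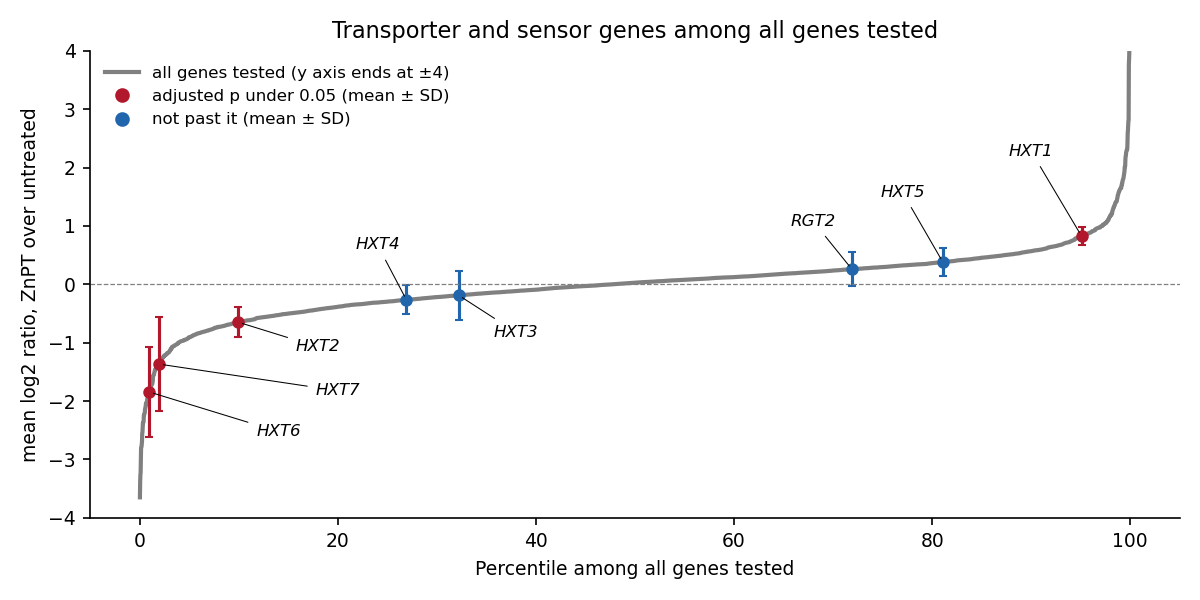
Mean log2 ratio of treated over untreated cells against the percentile among the 4312 genes tested; the grey line is every gene tested and points are the 8 transporter and sensor genes with their SD over 3 arrays. HXT6 and HXT7 lie at percentiles 0.974 and 1.97 and HXT1 at 95.1, while the 4 blue points between were not past the threshold.

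Several of these genes lie next to each other in the genome. By gene order in the RefSeq annotation (assembly R64), HXT7, HXT6 and HXT3 follow each other on chromosome IV with the single gene YDR344C between HXT6 and HXT3, and HXT4, HXT1 and HXT5 follow each other on chromosome VIII with AHT1 between HXT4 and HXT1. On chromosome IV the adjacent genes HXT7 and HXT6 both fell, at -1.37 and -1.84, and HXT3 stood at -0.19. On chromosome VIII HXT4 stood at -0.27, and HXT1 and HXT5 had positive means of 0.83 and 0.38, of which that of HXT1 was past the threshold. YDR344C and AHT1 are not analysed here.

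The genes whose 3 array values lay closest to those of HXT6, by Euclidean distance over the arrays on the log2 scale, were SYM1 (YLR251W), a mitochondrial inner membrane protein gene, at 0.18, the zinc importer gene ZRT1 at 0.43 and the mitochondrial ribosomal protein gene MRPS8 at 0.71. SYM1 had -2.53, -1.87 and -0.96 on arrays 1, 2 and 3. Closest to HXT7 were SKN7, a stress-response transcription factor gene, at 0.24, NOT3, a subunit gene of the Ccr4-Not complex, at 0.33 and CPP3 at 0.40. Closest to HXT1 were the reductase gene FRE5 at 0.10, PMU1 at 0.11 and the glyoxylate reductase gene GOR1 at 0.12. Such a likeness over 3 arrays is a description of size and spread.

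The other 10 transporter genes of the family on the list, GAL2 among them, had spots, and 6 of them were tested. HXT9 (YJL219W), a target of the multidrug resistance regulators, rose, with 1.03, 0.87 and 1.01 and a mean of 0.97 ± 0.09 (SD, n = 3; limma adjusted p = 0.0062); without replicate 1 its limma adjusted p was 0.0503. Of the 6, 1 was called (16.7%, against 17.7% of all genes tested), and their median was 0.29. HXT12, a close relative of HXT9 in sequence and listed as a pseudogene in the reference strain, had 0.97, 0.89 and 0.03 (limma adjusted p = 0.084). HXT11, a further close relative, had 0.58 and -0.73 on 2 arrays and was not tested. A cDNA spot for 1 of these relatives may bind transcripts of the others, so the rise may not be of HXT9 alone. Of 5 transporter genes for other sugars and glycerol, 0 passed the threshold in limma, against 17.7% of all genes tested. MAL11 at -0.46, MPH2 at 0.44 and MAL31 at -0.41 lay farthest from 0 (limma adjusted p = 0.11, 0.12 and 0.13).

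In the relay from the sensors to Rgt1, 0 of 10 genes tested passed the threshold in limma, against 17.7% of all genes tested. The lowest p-values of the 10 were those of GRR1, YCK2 and YCK1. GRR1, which encodes the F-box protein that leads Mth1 and Std1 to breakdown, stood at -0.79 ± 0.58 (limma unadjusted p = 0.01, adjusted p = 0.053). YCK2, a casein kinase gene, stood at -0.62 ± 0.38 (limma unadjusted p = 0.012, adjusted p = 0.057). Its paralog YCK1 stood at 0.38 ± 0.16 (limma unadjusted p = 0.045, adjusted p = 0.13), each SD with n = 3. GRR1 passed the threshold in the high-power scans alone (limma adjusted p = 0.033), without replicate 3 (0.012) and with sets of spots centred (0.049). YCK2 passed it in the high-power scans alone (limma adjusted p = 0.022) and with scans or sets of spots centred (0.049 and 0.036). MTH1, STD1 and RGT1, the relay and repressor genes themselves, had means of -0.10, 0.26 and -0.23 (limma adjusted p = 0.72, 0.47 and 0.47), each with arrays on both sides of 0. Of 4 hexose kinase genes, 0 passed the threshold in limma, against 17.7% of all genes tested. GLK1, the glucokinase gene, had the lowest p of the 4, at 0.44 ± 0.08 (SD, n = 3, limma unadjusted p = 0.022, adjusted p = 0.084). HXK2 stood at 0.21 ± 0.40. In the high-power scans alone GLK1 passed the threshold, at 0.45 (limma adjusted p = 0.0475).

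The repressor Mig1 shuts off genes for other carbon sources in high glucose, and the kinase Snf1 of the same pathway acts against it. Of 12 genes of this pathway tested, 2 rose and 0 fell, and the median was -0.04. The share called was 16.7%, against 17.7% of all genes tested. MIG3, a relative of the repressor gene MIG1, stood at 0.67 ± 0.12 (SD, n = 3; limma adjusted p = 0.025) and TOS3, a Snf1-activating kinase gene, at 0.66 ± 0.17 (limma adjusted p = 0.029). Both calls ended when any 1 replicate was left out, with limma adjusted p between 0.069 and 0.125. MIG2, a repressor gene that is induced by the Snf3 and Rgt2 pathway, had 0.86 and 1.10 on 2 arrays and was not tested. MIG1 had a mean of 0.50 ± 0.21 (limma adjusted p = 0.07). Below 0 stood SNF1 at -0.27 and REG1, the lowest of the 12, at -0.34 (limma adjusted p = 0.26 and 0.21).

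Of 16 genes known to be held down by glucose, 9 were tested, 0 rose and 2 fell, and the median was 0.03. The share called was 22.2%, against 17.7% of all genes tested. HAP4 (YKL109W), the regulatory subunit gene of the activator of respiratory genes, had -1.60, -1.72 and -1.36 and a mean of -1.56 ± 0.18 (SD, n = 3), a 2.95-fold lower level in treated cells (limma adjusted p = 0.00089). ADR1 (YDR216W), an activator gene for growth on ethanol and fatty acids, had -0.72, -1.59 and -1.34 and a mean of -1.22 ± 0.44 (SD, n = 3; limma adjusted p = 0.0076), and without replicate 2 its limma adjusted p was 0.051. SUC2, the invertase gene and a classic reporter of glucose repression, stood at 0.18 ± 0.20 (SD, n = 3; limma adjusted p = 0.45). ADH2, the gene of the glucose-repressed alcohol dehydrogenase, stood at 0.61 ± 0.30 (SD, n = 3; limma adjusted p = 0.052).

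Of 14 genes that link glucose to protein kinase A, 7 were tested and 1 was called (14.3%, against 17.7% of all genes tested). The called gene was PDE2, which encodes the high-affinity phosphodiesterase that breaks down cyclic AMP, and it fell. Its mean was -0.91 ± 0.17 (SD, n = 3; limma adjusted p = 0.0091), and limma adjusted p was 0.072 without replicate 1 and 0.053 without replicate 2. The ubiquitin ligase Rsp5 and its adaptors send transporters from the cell surface to breakdown. Of 6 of their genes tested, 1 was called (16.7%, against 17.7% of all genes tested). ROG3, an adaptor gene, rose. It had 0.36, 1.19 and 0.90 and a mean of 0.82 ± 0.42 (SD, n = 3; limma adjusted p = 0.029). The call of ROG3 ended without replicate 2 and without replicate 3 (limma adjusted p = 0.15 and 0.077). The median of these 6 genes was -0.08. Over all of these lists together 7 of 59 genes tested were called (11.9%), 4 higher and 3 lower, against 17.7% of all genes tested.

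**Figure D4:**
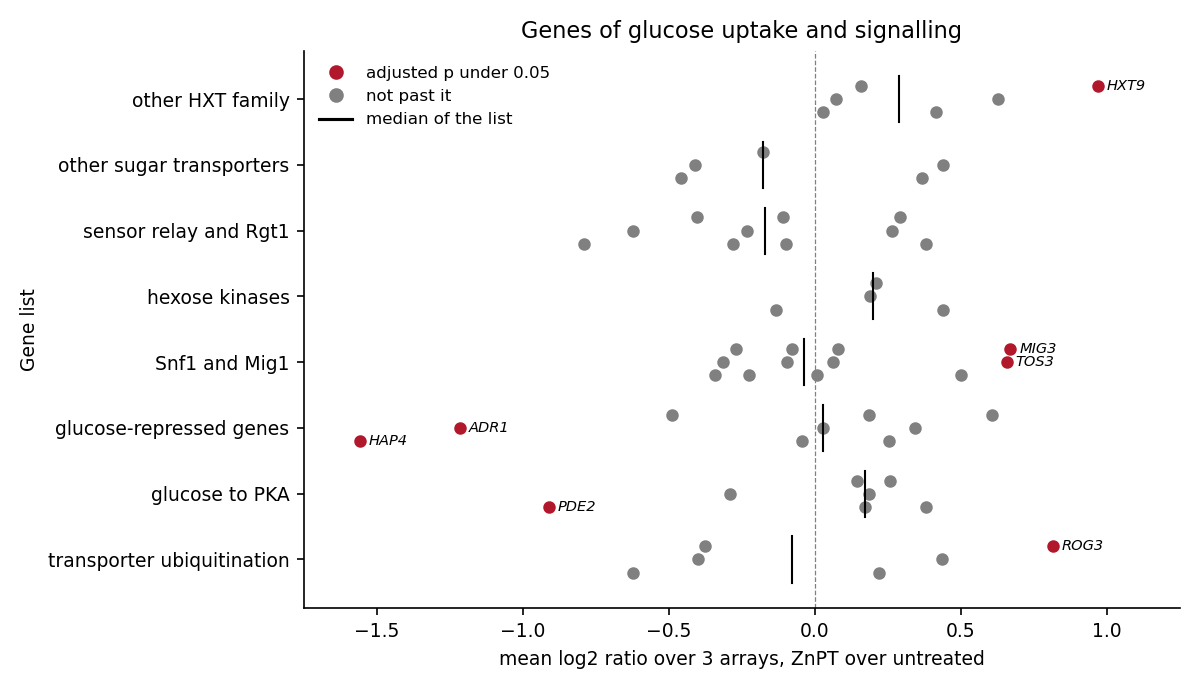
Mean log2 ratio of treated over untreated cells over 3 arrays (horizontal axis) for the 59 tested genes of 8 lists of glucose uptake and signalling; red points passed the threshold and black bars mark each list's median. HAP4 at -1.56 lies farthest to the left and HXT9 at 0.97 farthest to the right.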

How the data were processed

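Per the labels, polyadenylated RNA was labelled with Cy5 (treated) and Cy3 (untreated) and hybridised to 2-colour cDNA arrays, and spots without a quality flag were LOWESS-normalized by the authors. The deposited values are log2 ratios, 1 column for each of 6 scans; the log base was read from the values. The ratio's direction, spot intensities and software versions are not given in the sources used here, so signal over background is unknown. LOWESS sets the average ratio near 0, and medians of the scans lay between 0.0186 and 0.0817. All 5446 spots with a gene in the platform annotation matched RefSeq (R64) by gene ID, and 0 spots named several genes and 1466 none. Spots of a gene were averaged, then both scans of an array. Genes with values on 3 arrays were tested with limma 3.58.1 (lmFit, eBayes; R 4.3.3), after a test on simulated data. The number of arrays limits the precision. Members, lists and tests were chosen with earlier results of these data known. Named genes were all members, every called list gene and up to 2 genes of a list with none. The 3 nearest genes to each of 3 members were named too. Others in the text (HXT11, HXT12, MAL31, YCK1, MTH1, STD1, RGT1, SNF1, REG1, MIG1, MIG2, SUC2 and ADH2) were chosen after their values were seen. Alternatives were single scans, other filters, centring, quantile normalization, robust eBayes, an adjusted p under 0.01 and each replicate left out; averaging HXT6 with HXT7 and centring sets of spots (those sharing the first digit of the spot number) were added after seeing the data. Figures used matplotlib 3.10.9.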

Additional observations from a re-analysis of the deposited data

How the results depend on the processing

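HXT6 stayed lower and past the threshold under every alternative that could test it, with means between -2.22 and -1.45 without 1 replicate. HXT1, HXT2, HXT4, HXT5, HXT6, HXT7 and RGT2 kept their sign under every alternative that gave them a value, which some did not. HXT3 ranged from -0.360 to 0.0412 without 1 replicate, the positive value being that without replicate 2. At an adjusted p under 0.01, HXT6 was the one called member. Low minus high affinity was 1.34 to 1.37 without 1 replicate, 0.82 in high-power scans alone, 0.78 with both scans required, 1.61 without HXT4, 1.44 with sets of spots centred and 1.15 with HXT6 and HXT7 averaged. Over all genes, 350 were higher and 414 lower, against 74 and 77 in low-power scans alone (1429 genes tested), 175 and 182 with both scans required (1372 genes), 132 and 163 at an adjusted p under 0.01, 132 to 297 and 176 to 337 without 1 replicate. Over the pathway lists, 4 higher and 3 lower became 0 and 1 in low-power scans alone (20 genes tested), 2 and 1 with both scans required, 1 and 3 at an adjusted p under 0.01, 6 and 6 in high-power scans alone, 4 and 5 with sets of spots centred, and 1 to 2 higher and 1 to 5 lower without 1 replicate. Fewer genes were tested with low-power scans and with both scans required. An adjusted p under 0.01 applied a stricter threshold to the same fit, and fits without 1 replicate rested on fewer arrays. The cause of the changes was otherwise not tested. Each spot on its own was not run, since every member has 1 spot. Each array held both cultures, so every ratio already compared them within an array. The samples form 1 group, and no further pairing was used.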
